A study of Mus musculus with 12 samples.

Results

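The effect of PLX3397 on the mouse striatum was estimated here over wild-type and R6/2 animals together, by setting the 6 libraries from treated mice against the 6 from mice on vehicle with genotype as an additive term. All 12 of the 12 libraries of the study entered this comparison. The groups were wild-type C57BL/6 mice on vehicle, wild-type C57BL/6 mice on PLX3397, R6/2 mice on vehicle and R6/2 mice on PLX3397, with 3 mice and 1 library per mouse in each. The source strain of every animal is given as C57BL/6. PLX3397 was mixed into the chow at 275 ppm, and both arms ran from 7 to 11 weeks of age, so no library shows the striatum before or after the drug. R6/2 mice carry a transgene with the first part of a human mutant huntingtin gene under its own human promoter, in addition to their normal mouse genes, and serve as a fast model of Huntington's disease. The sex of the mice is not given in the sources used here.

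PLX3397 is an oral kinase inhibitor that blocks the colony-stimulating factor 1 receptor Csf1r and, less strongly, the related kinases Kit and Flt3. Microglia, the resident macrophages of the brain, need signals through Csf1r to survive, and its ligands Csf1 and Il34 come from other brain cells, so inhibitors of this class are used to clear microglia from living brain. Microglia sense their surroundings through purine receptors, Fc receptors, Toll-like receptors and the Trem2 and Tyrobp pair, and their identity rests on transcription factors such as PU.1 (encoded by Spi1), Sall1 and Irf8.

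Values are log2 CPM, that is reads assigned to a gene in proportion to the size of the library, a change is the mean difference of PLX3397 minus vehicle on that scale with its standard error, and a gene was called when its limma p, adjusted by Benjamini-Hochberg over 15397 genes, was under 0.05. A prior of 1.65 to 2.41 reads is part of each deposited value, and a log2 change is a difference of mean logs. The share of RNA left is the ratio of mean CPM from the recovered reads, where not said otherwise, and can lie above or below the share that the log2 change gives. The tissue was dissected whole, so fewer cells of a type and less RNA per cell cannot be told apart. The p-values measure the spread between these mice. In the averaged comparison that spread includes any difference between the genotypes in the change on the drug.

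The libraries held 18902120 to 24293208 reads assigned to genes, and replicates correlated at r = 0.938 to 0.986. The striatal marker Ppp1r1b was present in all libraries at 6.14 to 11.4 log2 CPM, and it was lower in each R6/2 library than in any wild-type one. Markers of neighbouring tissue were uneven. The list of cortical excitatory neuron genes had its lowest means in 3 treated libraries, with 3.49 and 3.51 log2 CPM in libraries 1 and 2 of treated R6/2 mice and 3.87 in library 1 of treated wild-type mice, against 4.62 to 6.43 in the other 9. Choroid plexus genes had means of 4.96 in library 1 of R6/2 mice on vehicle and 4.01 in library 1 of treated wild-type mice, and of 0.81 to 2.65 elsewhere; these 2 libraries are called the choroid-rich pair below. The main counts, and the medians of several lists, are given with and without these libraries.

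PLX3397 was followed by a one-sided loss of RNA. Of 15397 genes, 181 were called (1.18%), and of these 180 were lower on the drug (1.17%) while 1, Xlr3b, was higher (0.00649%). At an unadjusted p under 0.05 there were 716 genes, 524 lower and 192 higher. The 180 falls ran from 0.54 to 6.44 on the log2 scale, and 169 of them were at least 1, 127 at least 2 and 42 at least 4. Over these genes the median change was -2.88, against -0.00121 over all genes. All 180 had a lower mean on PLX3397 within each genotype, with medians of -2.62 in wild type and -2.89 in R6/2.

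The treated and untreated libraries were mostly separate for these genes. In 172 of the 180, all 6 PLX3397 libraries lay below all 6 vehicle libraries, and in 8 the groups overlapped. Over all genes, 180 had every PLX3397 library below every vehicle library (1.17%) and 7 had every PLX3397 library above (0.0455%). The count was 160 without R6/2 PLX3397 libraries 1 and 2, of which 158 were among the 181, and 172 without the choroid-rich pair, of which 167 were. With the mean of the cortical list as a covariate 164 genes were called, 160 of them shared.

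**Figure D1:**
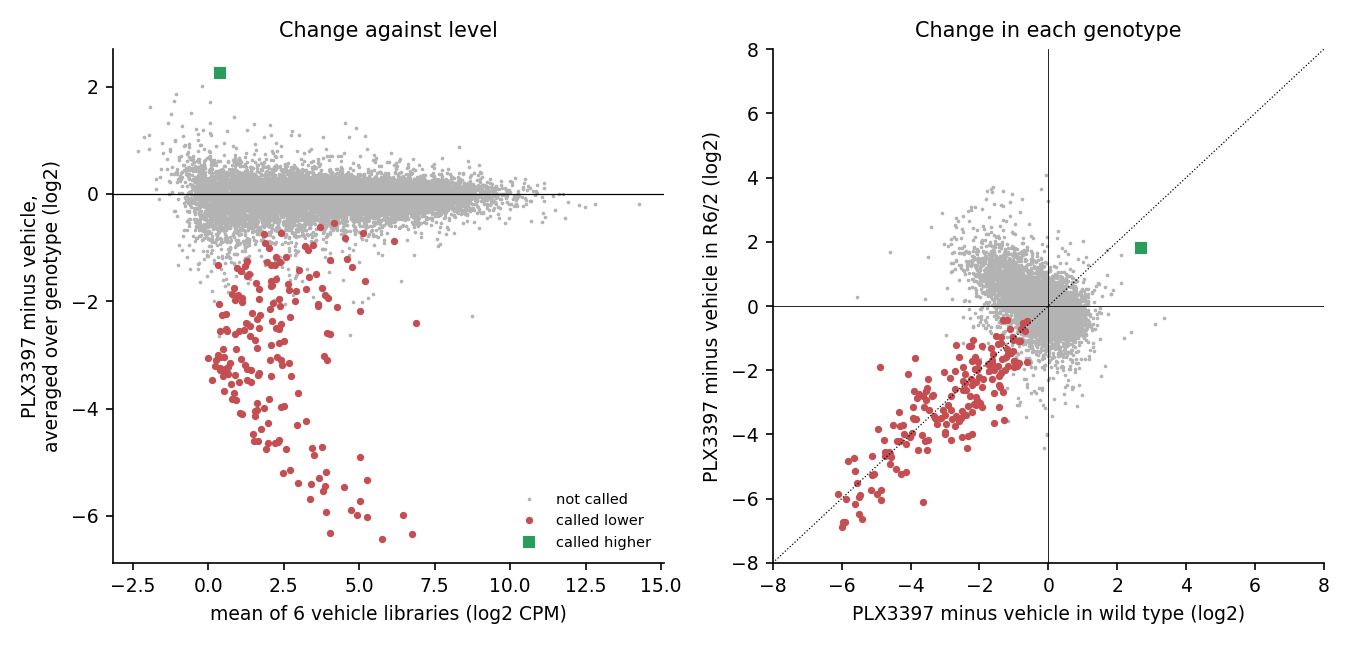
Each point is 1 of 15397 genes. Left, the change on PLX3397 averaged over genotype (log2) against the mean of the 6 vehicle libraries (log2 CPM); right, the change in R6/2 against the change in wild type (log2), with the line of equal change dotted. The 180 genes called lower (red) reach -6.44 and lie along the line of equal change, and Xlr3b (green square) is the 1 gene called higher.

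Many myeloid genes carry binding sites of PU.1 close to their start, and the promoters of the genes that fell were searched for its core, GAGGAAGT, on both strands. Promoters here are the RefSeq windows of 250 bases before to 50 bases after a start on GRCm38.p6, with 15092 windows for 11814 of the genes measured. The core was present in 27 of 175 promoters (15.4%) of 137 called lower genes with an entry, against 405 of all 15092 (2.68%). In the homeostatic microglia list, genes that mark resting microglia, it was in 4 of 35 promoters (11.4%) of 28 genes. A match describes letters in a window and not binding, base composition was not matched, and the 2 shares were not tested against each other. The 3 stretches below belong to the members of that list with the smallest p that hold the core, here on the strand opposite to the gene. Each is 100 bases of GRCm38.p6, written in the direction of the gene, with the core in capitals as its reverse complement. That of Ctss, which encodes the protease cathepsin S, is chr3:95526706-95526805 on the plus strand; that of Cd53, a tetraspanin of white blood cells, is chr3:106790130-106790229 on the minus strand; that of C1qc, a chain of complement C1q, is chr4:136893056-136893155 on the minus strand. The first 2 end 20 bases past the start, and in C1qc the core begins 195 bases before it.
Ctss: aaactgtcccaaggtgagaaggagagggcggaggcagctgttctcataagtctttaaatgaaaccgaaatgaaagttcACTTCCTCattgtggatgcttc
Cd53: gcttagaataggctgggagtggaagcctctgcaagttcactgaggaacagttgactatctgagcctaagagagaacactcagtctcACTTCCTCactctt
C1qc: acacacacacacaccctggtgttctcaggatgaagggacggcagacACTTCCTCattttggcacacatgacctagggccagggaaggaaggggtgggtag

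Csf1r, the receptor the drug blocks, was among the genes with the deepest falls. It was at 6.62, 6.74 and 6.63 log2 CPM in the wild-type vehicle libraries and at 6.75, 6.62 and 7.16 in the R6/2 vehicle libraries. On PLX3397 it was at 1.52, 1.65 and -1.04 in wild type and at -0.79, -0.24 and 1.39 in R6/2. No treated library came within 4 log2 units of an untreated one, and the treated libraries of the genotypes overlapped. Averaged over genotype the fall was 6.34 ± 0.47 (adjusted p = 7.20e-06), and 1.53% of the read share was left.

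The ligands and the other kinases of this axis did not follow the receptor. Of 12 measured genes for Csf1r, its relatives and their ligands, Csf1r was the 1 called lower, 0 were higher and the median change was -0.16. The ligand Csf1 was at 4.50 to 5.15 log2 CPM on vehicle and 4.41 to 5.05 on PLX3397, a change of -0.04 ± 0.14 (adjusted p = 0.975; 95% interval -0.36 to 0.27). The neuronal ligand Il34 changed by 0.04 ± 0.21 (adjusted p = 0.987), with 5.63 to 6.23 on vehicle and 5.06 to 6.42 on the drug. In Il34 the mean rested on opposite differences, 0.60 in wild type and -0.52 in R6/2 (interaction adjusted p = 0.0227). How many genes pass that test depended on single libraries, as given below. The stem cell factor receptor Kit changed by -0.08 ± 0.18 (adjusted p = 0.965; 95% interval -0.49 to 0.32). For Flt3, a receptor of blood progenitors, the change was -0.28 ± 0.34 (adjusted p = 0.963), and its interval of -1.02 to 0.46 is wide. Both kinases are also inhibited by the drug as proteins, which RNA does not show.

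Of 38 homeostatic microglia genes, all measured, 31 fell, 0 rose and 7 were not called. The median change was -4.81, which corresponds to 3.56% on the deposited scale, and it was -4.70 in wild type and -4.79 in R6/2. All 38 changes were negative, against 7735 of 15397 over all genes. The mean of the list was 3.74 to 4.26 log2 CPM in the 6 vehicle libraries and -0.43 to 0.67 in the 6 treated ones. Set against its own genotype on vehicle, the share left at the list's median, on the deposited log2 scale and not from the recovered reads, was 2.90%, 4.84% and 7.16% in the wild-type libraries on the drug and 2.76%, 2.84% and 5.93% in the R6/2 ones.

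**Figure D2:**
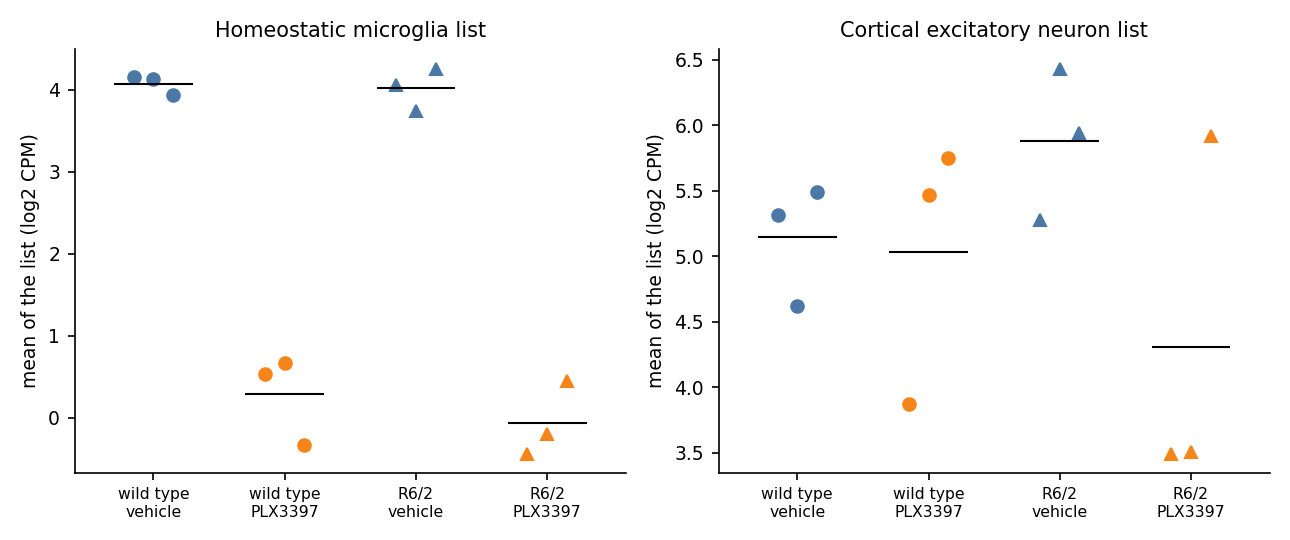
Mean of 38 homeostatic microglia genes (left) and of 22 cortical excitatory neuron genes (right) in log2 CPM, 1 point per library and a line at the group mean. The microglial mean is at 3.74 to 4.26 on vehicle and at -0.43 to 0.67 on PLX3397 in both genotypes, while the cortical mean is at 3.49 to 3.87 in 3 treated libraries and at 4.62 to 6.43 in the others.

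Receptors by which microglia survey the tissue lost nearly all of their RNA. Cx3cr1, the receptor for the neuronal chemokine fractalkine (a protein-coding gene on GRCm38 chromosome 9, 120048683 to 120068296; NCBI gene 13051), was at 5.54 to 5.93 (median 5.78) on vehicle and at -2.20 to 0.57 (median -0.55) on PLX3397. It fell by 6.44 ± 0.43 (adjusted p = 3.77e-06), the largest change of any gene called, and 1.31% of its read share was left. The purine receptor P2ry12 (chromosome 3, 59216271 to 59262985), which guides microglial processes to ATP, went from 4.70 to 5.87 (median 5.23) down to -0.77 to 1.01 (median -0.20). Its fall was 5.33 ± 0.30 (adjusted p = 1.09e-06), with 2.37% left. The related receptor P2ry13 fell by 5.93 ± 0.36, from 246 to 397 reads per library to 0 to 8, and Gpr34, a lysophosphatidylserine receptor (chromosome X, 13622650 to 13640859), by 5.53 ± 0.23, from 201 to 349 reads to 3 to 8 (adjusted p = 1.74e-06 and 2.26e-07). Gpr34 had the smallest p of all genes, and its 6 treated libraries were close together at -2.19 to -1.27 log2 CPM.

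Other surface proteins of resting microglia followed the same pattern. Tmem119, a membrane protein used as a microglial marker, was at 4.50, 4.47 and 4.26 in wild type and 4.61, 4.39 and 4.76 in R6/2 on vehicle. On PLX3397 it was at -0.21, -0.27 and -0.90 in wild type and at -1.77, -1.54 and -1.07 in R6/2, so that each treated R6/2 library lay below each treated wild-type one. Its averaged fall was 5.46 ± 0.25 (adjusted p = 2.30e-07), with 2.06% left. Siglech, a sialic acid binding lectin, fell by 6.33 ± 0.46 (adjusted p = 5.75e-06; 206 to 455 reads against 0 to 15), and Selplg, the P-selectin ligand, by 4.72 ± 0.23 (adjusted p = 3.07e-07; 3.33% left). Mpeg1, a pore-forming protein of macrophages picked after its values were seen, fell by 4.89 ± 0.22 (adjusted p = 2.30e-07), from 4.65 to 5.50 on vehicle to -0.39 to 0.78.

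The 7 list members that were not called were Sparc, Itgb5, Sall1, Mertk, Entpd1, Ikzf1 and Aif1. The transcription factor Sall1 was at 4.96 to 5.50 on vehicle and 4.06 to 4.94 on the drug, so its groups did not overlap, and it changed by -0.61 ± 0.17 (adjusted p = 0.278). Aif1, which encodes the microglial stain Iba1, was at 3.70, 3.11 and 3.27 in wild type and 3.15, 2.34 and 3.09 in R6/2 on vehicle, and on the drug at 2.23, 3.85 and 3.09 in wild type and 1.16, 1.68 and 2.41 in R6/2. Its change of -0.71 ± 0.31 did not pass (adjusted p = 0.963), and its highest value of all 12 libraries was in a treated one. It was not called under any of 25 alternative settings, over which its adjusted p was 0.359 to 1.00. Ikzf1, a lymphoid and myeloid transcription factor, changed by -1.88 ± 0.46 (adjusted p = 0.115) and was called in 4 of 24 alternatives (0.00532 to 0.372), among them without wild-type PLX3397 library 1 (0.0145). Itgb5, an integrin subunit, changed by -0.77 ± 0.19 (adjusted p = 0.101) and was called in 4 of 25 (0.00139 to 0.502), among them without wild-type PLX3397 library 2 (0.0464). Sparc, the phagocytic receptor Mertk and the ATP-degrading enzyme Entpd1 changed by -0.28, -0.46 and -0.48 (adjusted p = 0.963 for each).

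**Figure D3:**
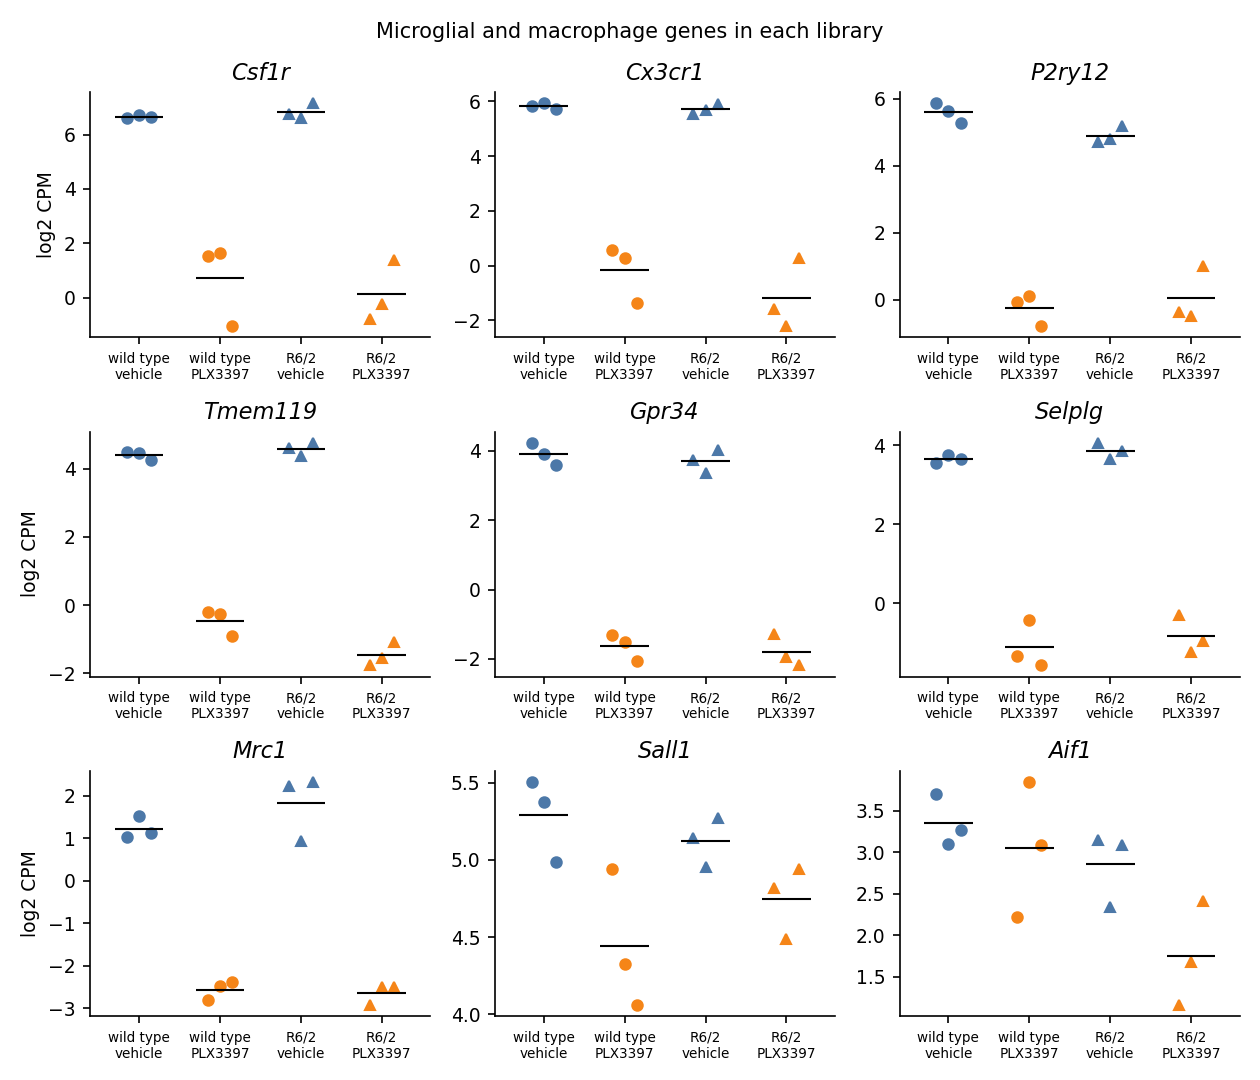
Log2 CPM of 9 microglial and macrophage genes in each library (circles wild type, triangles R6/2, blue vehicle, orange PLX3397) with a line at the group mean; the vertical scale differs between panels. Csf1r to Mrc1 are separated by treatment in all 12 libraries, Sall1 by a smaller distance (lowest vehicle library 4.96, highest treated library 4.94), and Aif1 overlaps.

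The receptor Trem2, which binds lipids and apolipoproteins, and its signalling partner Tyrobp fell together. Trem2 went from 3.15 to 3.75 log2 CPM on vehicle to -3.46 to 1.01 on PLX3397, a fall of 4.87 ± 0.55 (adjusted p = 0.000209) that left 5.19%. Its treated libraries were at -1.52, 0.18 and 1.01 in wild type and at -2.93, -3.46 and -1.52 in R6/2, a difference between genotypes that did not pass (interaction adjusted p = 0.0691). Tyrobp fell by 5.44 ± 0.48 (adjusted p = 2.58e-05; 209 to 479 reads against 1 to 22). Apoe, a Trem2 ligand made mostly by astrocytes, was at 9.87 to 11.1 on vehicle and 10.1 to 11.5 on the drug and changed by 0.07 ± 0.22 (adjusted p = 0.974).

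Among complement genes, 6 of 19 measured fell and 0 rose, with a median of -0.58 (-0.36 without R6/2 PLX3397 libraries 1 and 2). The 6 were the 3 chains of C1q, which starts the classical cascade, both chains of complement receptor 3, and the receptor for C3a. C1qa went from 604 to 1288 reads per library to 1 to 51, a fall of 6.02 ± 0.61 (adjusted p = 8.40e-05), and C1qb fell by 5.19 ± 0.39 (adjusted p = 7.20e-06). C1qc, whose promoter is printed above, fell by 5.98 ± 0.56 (adjusted p = 4.14e-05; 488 to 822 reads against 0 to 45). The integrin chains Itgam and Itgb2 fell by 5.88 ± 0.44 and 3.96 ± 0.37 (adjusted p = 7.15e-06 and 3.85e-05), and C3ar1 by 3.84 ± 0.29 (adjusted p = 7.20e-06). The other 13 complement genes, among them those for C3 and factor B, were not called. C1qa, C1qb, C1qc and Itgam stand on the homeostatic list as well.

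Fc and Toll-like receptors were the list with the next largest share of falls, 11 of 15 measured, with a median of -2.37 and 0 higher. All 15 changes were negative. Fcer1g, the signalling chain shared by Fc receptors, fell by 4.76 ± 0.27 (adjusted p = 1.18e-06; 91 to 197 reads against 1 to 7). The low-affinity receptors Fcgr3 and Fcgr2b fell by 4.74 ± 0.36 and 4.03 ± 0.23 (adjusted p = 7.20e-06 and 1.09e-06). The nucleic acid sensors Tlr13 and Tlr7 fell by 4.60 ± 0.32 and 3.89 ± 0.35 (adjusted p = 4.40e-06 and 2.96e-05), and Tlr13 was at 0 to 3 reads in the treated libraries. Tlr4, the endotoxin receptor, its partner Ly96, Tlr3 and the adaptor Myd88 were the 4 not called, with changes of -1.17, -0.57, -0.54 and -0.31.

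Cytokine and chemokine genes gave 6 falls of 15 measured, with a median of -0.53 (-0.29 without R6/2 PLX3397 libraries 1 and 2). The chemokine Ccl6 went from 0.27 to 1.21 log2 CPM to -3.46 to -2.18, a fall of 3.83 ± 0.32 (adjusted p = 2.03e-05), with 0 to 3 reads left per library. Its neighbour Ccl9 fell by 3.21 ± 0.43 (adjusted p = 0.000900). The interleukin 6 receptor Il6ra and the TNF receptor Tnfrsf1b kept 30.0% and 32.9% and fell by 1.69 ± 0.23 and 1.59 ± 0.21 (adjusted p = 0.000900 and 0.000972). The fractalkine gene Cx3cl1, which codes for the neuronal ligand of Cx3cr1, changed by 0.15 and was not called.

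In the TGF-beta pathway, whose signal maintains microglial identity, 2 of 20 genes fell, the ligand Tgfb1 and the receptor Tgfbr1, and the median was -0.06. Tgfb1 went from 1.81 to 2.54 to -0.31 to 0.82 log2 CPM (change -1.62 ± 0.23, adjusted p = 0.00150; 31.4% left). Tgfbr1 went from 4.90 to 5.60 to 3.02 to 4.01, also a change of -1.62 (SE 0.21, adjusted p = 0.000737), with a fall of 2.17 in wild type and 1.06 in R6/2. The difference of 1.12 passed the interaction test (adjusted p = 0.0233) and in 17 of 25 alternatives, and it was 0.05 (adjusted p = 0.929) with the trend with GC content and length removed. The Smad genes, which carry the signal to the nucleus, were not called.

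Of 180 genes that fell, 57 were on any of the 39 lists and 123 on none. The genes described next were picked from the 180 after their values were seen, whether or not a list holds them. Several code for signalling proteins of white blood cells. Vav1, an exchange factor for Rac, fell by 4.65 ± 0.29 (adjusted p = 2.44e-06; 71 to 127 reads against 0 to 5). The kinase Btk fell by 3.26 ± 0.32 (adjusted p = 5.95e-05), and Syk, the kinase that acts below Tyrobp and Fcer1g, by 1.72 ± 0.27 (adjusted p = 0.00418; 31.6% left). Inpp5d, a lipid phosphatase that dampens the same pathway, fell by 1.94 ± 0.31 (adjusted p = 0.00485). The NADPH oxidase subunit Ncf1 fell by 3.72 ± 0.32 (adjusted p = 2.33e-05). Among transcription factors, Spi1, which encodes PU.1, went from 49 to 93 reads per library to 0 to 6 (change -4.60 ± 0.37, adjusted p = 1.41e-05), and Irf5 and Maf fell by 3.09 ± 0.29 and 1.55 ± 0.22 (adjusted p = 3.86e-05 and 0.00165). Alox5ap, which presents arachidonic acid for leukotriene synthesis, fell by 2.33 ± 0.23 (adjusted p = 7.14e-05). The granulocyte growth factor receptor Csf3r fell by 4.31 ± 0.33 (adjusted p = 7.73e-06).

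Some genes that fell had much RNA left, and these too were picked after their values were seen. Cmtm6, a membrane protein that stabilises PD-L1, was at 5.01 to 5.22 on vehicle and at 4.23 to 4.77 on PLX3397, a fall of 0.73 ± 0.11 (adjusted p = 0.00355) with 60.7% left. Mylip, a ubiquitin ligase for lipoprotein receptors, fell by 0.62 ± 0.11 (adjusted p = 0.00930; 65.2% left). The Golgi protein Golm1 fell by 1.36 ± 0.19 (adjusted p = 0.00123; 38.2% left) and Vsir, an immune checkpoint receptor, by 2.18 ± 0.20 (adjusted p = 3.81e-05; 22.5% left). In each of these 4 genes all 6 treated libraries lay below all 6 untreated ones.

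Macrophages of the vessels and meninges share Csf1r with microglia, and 3 of 5 measured border macrophage genes fell, with 7 of the 12 on the list not measured. Mrc1, the mannose receptor, went from 0.94 to 2.32 log2 CPM to -2.93 to -2.40, a fall of 4.13 ± 0.30 (adjusted p = 6.56e-06) that left 1 to 2 reads per library. The scavenger receptor Stab1 fell by 2.05 ± 0.26 (adjusted p = 0.000647; 25.1% left) and the coagulation factor chain F13a1 by 3.03 ± 0.48 (adjusted p = 0.00386; 6 to 49 reads against 0 to 5). The scavenger receptor Cd163 and the endocytic adaptor Dab2 changed by -0.08 and -0.27 and were not called. Of 15 genes of blood immune cells, Itgal and Cd4 were measured and neither was called (-0.86 and 0.29).

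Genes of activated microglia were a mixed list, since many are also made by other brain cells. Of 21 measured, 2 fell, Ccl6 and the lysozyme Lyz2, and the median was -0.13. Lyz2 went from 1.55 to 3.21 to -1.75 to 0.13 log2 CPM (change -3.19 ± 0.38, adjusted p = 0.000312; 9.56% left). The phagosome protein Cd68 changed by -0.99 and the cathepsin Ctsd by -0.30, neither called. Lysosomal genes gave 3 falls of 32 with a median of -0.10, among them the microglial Ctss, and Ctsc, an activator of granule proteases. Ctss fell by 5.99 ± 0.40 (adjusted p = 4.10e-06; 1.76% left), which also makes it the 1 fall among 24 matrix proteases. Ctsc fell by 1.42 ± 0.24 (adjusted p = 0.00615; 36.6% left), with 0.0749 on leaving out R6/2 PLX3397 libraries 1 and 2 and a range of 0.00109 to 0.0749 over 25 alternatives.

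Interferon-stimulated and antigen presentation genes each had 1 fall, of 31 and of 18 measured, with medians of 0.12 and -0.13. Cd74, the invariant chain of MHC class II, fell by 2.50 ± 0.45 (adjusted p = 0.0126). It was highest in R6/2 vehicle libraries 1 and 3 (3.51 and 2.46) and at 0.69 to 1.45 in the other 4 vehicle libraries, above all 6 treated ones at -1.52 to -0.15. Its adjusted p was 0.0523 with 1 CPM added, 0.0525 with limma-voom, 0.0567 with the cortical covariate and 0.0958 without R6/2 PLX3397 libraries 1 and 2, in a range of 0.00211 to 0.0958 over 24 alternatives. Trim30a, an interferon-induced inhibitor of inflammatory signalling, fell by 0.75 ± 0.15 (adjusted p = 0.0297), a call kept in 10 of 24 alternatives (0.00251 to 0.244). Among wild-type mice it ended on leaving out vehicle library 2 (0.10) or 3 (0.104) or treated library 1 (0.0625) or 3 (0.0776). Among R6/2 mice it ended on leaving out vehicle library 1 (0.0743) or 3 (0.121) or treated library 1 (0.0823), 2 (0.0678) or 3 (0.0914). The call also ended with the replicate block (0.0993), removal of the trend with GC content and length (0.244) and the cortical covariate (0.0764), and without R6/2 PLX3397 libraries 1 and 2 (0.176) or the choroid-rich pair (0.150).

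Xlr3b, an X-linked gene of the lymphocyte-regulated family, was the 1 gene called higher (NCBI gene 574437; GRCm38 chromosome X, 73192150 to 73202930, protein coding). It was at 0.04, -0.47 and -0.08 in wild type on vehicle and at 2.55, 2.61 and 2.44 in wild type on PLX3397. In R6/2 it was at 1.26, -0.23 and 1.87 on vehicle and at 2.56, 2.58 and 3.22 on the drug. All 6 treated libraries were above all 6 untreated ones, and the R6/2 vehicle libraries were the most spread. The rise was 2.26 ± 0.33 (adjusted p = 0.00212), from 14 to 69 reads per library to 108 to 215, and 24 of the 24 alternatives that tested it kept the call. Its near-identical neighbour Xlr3a, picked after its values were seen, changed by 1.31 ± 0.35 without passing (adjusted p = 0.217). Xlr3a was at 1.51 in R6/2 vehicle library 1 and at -0.63 to 0.19 in the other vehicle libraries, against 0.87 to 2.08 on PLX3397. It was called in 3 of 24 alternatives (0.00599 to 0.653), among them without that library (0.0111) and without the choroid-rich pair (0.0235). Reads of such close copies can be assigned to either, so the level of each alone is uncertain.

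**Figure D4:**
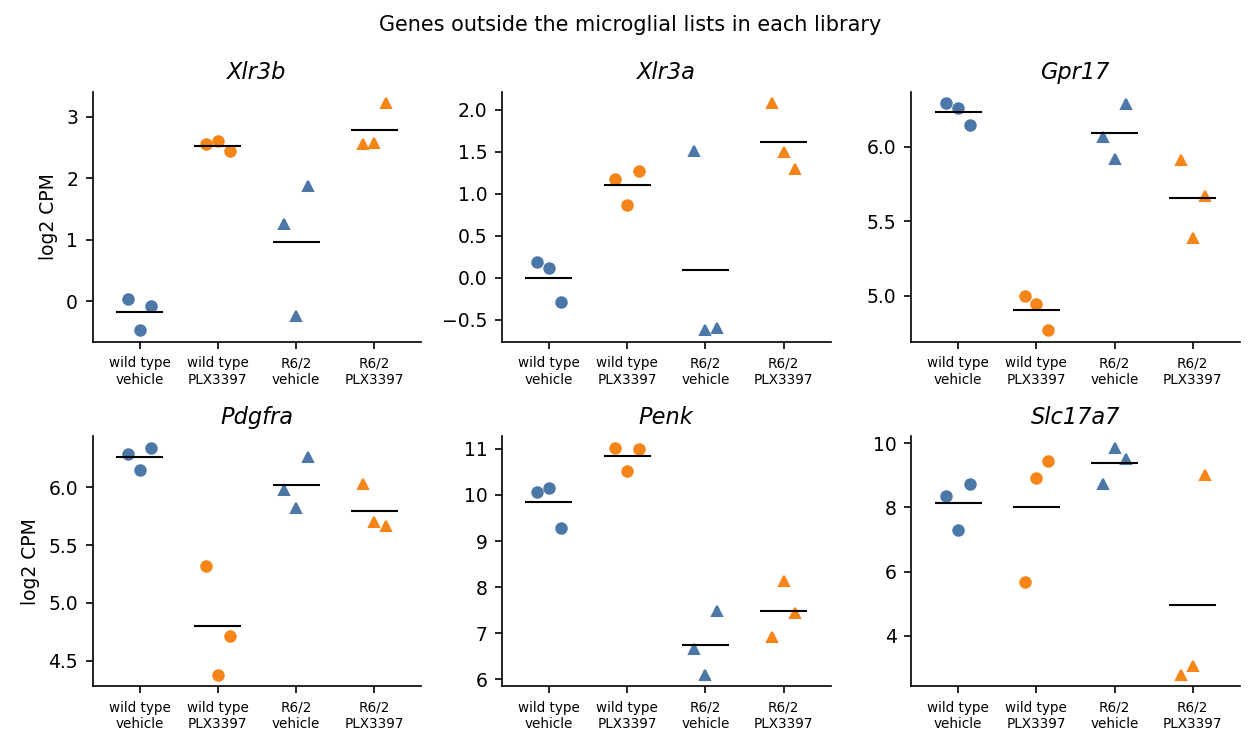
Log2 CPM in each library of 6 genes outside the microglial lists, with symbols as in the plot of microglial genes and scales that differ between panels. Xlr3b is at 2.44 or above in all 6 treated libraries and at 1.87 or below on vehicle, Gpr17 and Pdgfra are lower on PLX3397 by more in wild type than in R6/2, Penk is lower in each R6/2 library than in any wild-type one, and Slc17a7 is at 2.79 and 3.06 in 2 treated R6/2 libraries.

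Outside the myeloid lists, 1 gene of the oligodendrocyte lineage fell. Gpr17, a receptor that marks precursors on the way to making myelin, is on the lists of precursors (1 of 22 called, median -0.43) and of committed cells (1 of 13, median -0.29). It was at 6.29, 6.26 and 6.15 in wild type and 6.06, 5.92 and 6.29 in R6/2 on vehicle, and at 5.0, 4.95 and 4.77 in wild type and 5.91, 5.39 and 5.67 in R6/2 on the drug. Treated and untreated libraries did not overlap, but those of R6/2 lay close to each other. The averaged fall was 0.88 ± 0.17 (adjusted p = 0.0193; 56.3% left), made up of 1.33 in wild type and 0.43 in R6/2. The call was kept in 14 of 25 alternatives (0.000539 to 0.0846). It ended on leaving out any wild-type library, whether vehicle 1 (0.0610), 2 (0.0637) or 3 (0.0652) or treated 1 (0.0539), 2 (0.0584) or 3 (0.0575), and in R6/2 on leaving out vehicle library 3 (0.0559) or treated library 2 (0.0550). It also ended with the replicate block (0.0582), with the filter on a mean of at least 2 log2 CPM (0.0846) and without the choroid-rich pair (0.0651). The median of the precursor list was -0.23 without that pair and -0.65 without R6/2 PLX3397 libraries 1 and 2.

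Pdgfra, the growth factor receptor of precursors and a relative of Csf1r, was not called. It was at 5.82 to 6.34 log2 CPM on vehicle, at 4.38 to 5.32 in treated wild-type libraries and at 5.67 to 6.03 in treated R6/2 ones. The averaged change was -0.84 ± 0.23 (adjusted p = 0.264), and it passed in 3 of 25 alternatives (0.0163 to 0.764), which were the fit of 4 group means (0.0163), removal of a trend with GC content and length (0.0400) and the cortical covariate (0.0367).

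For 25 of the 39 lists no gene was called, over 545 measured genes. They included 43 genes of medium spiny neurons, which send the striatum's output, with a median of 0.45 and 42 positive changes. These values were 0.19 and 33 without the choroid-rich pair, and 0.54 and 40 without R6/2 PLX3397 libraries 1 and 2. Penk, the enkephalin precursor, was the member with the smallest p and changed by 0.88 ± 0.27 (adjusted p = 0.385), with 1.01 in wild type and 0.75 in R6/2. The list's mean was 6.70 to 7.86 in wild type and 4.93 to 5.93 in R6/2 on vehicle, and 7.43 to 8.32 and 5.04 to 6.48 on PLX3397, so treated and untreated libraries overlapped within each genotype. Cholinergic interneuron genes had the highest median, 1.10, from -0.76 in wild type and 2.11 in R6/2. The list's median stood 2.87 and 2.81 above R6/2 on vehicle in treated R6/2 libraries 1 and 2, which are low in cortical genes, and 0.97 above it in library 3. Without libraries 1 and 2 the averaged median was -0.07 and that in R6/2 was 0.97. All 33 respiratory chain genes had positive averaged changes, with a median of 0.18, from 0.49 in wild type and -0.11 in R6/2.

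Myelin, astrocyte, endothelial and mural cell lists, all without a call, had averaged medians near that of all genes. These were -0.11 over 23 myelin genes, -0.06 over 24 astrocyte genes, 0.06 over 22 endothelial genes and 0.15 over 15 mural cell genes. Ependymal genes, of the cells that line the ventricles, also had no call but a median of -0.52 over 15. That median was -0.245 without R6/2 PLX3397 libraries 1 and 2 and -0.27 without the choroid-rich pair. The medians in wild type and R6/2 were 0.34 and -0.24 for endothelial and 0.66 and -0.35 for mural cell genes. They were 0.03 and -0.22 for myelin, -0.004 and -0.09 for astrocyte and -0.17 and -0.81 for ependymal genes. Without R6/2 PLX3397 libraries 1 and 2, the averaged endothelial and mural medians were 0.27 and 0.34. Reactive astrocyte genes had a median of 0.10 over 17, from 0.22 in wild type and -0.25 in R6/2. Gfap, the intermediate filament of astrocytes, changed by 0.12 ± 0.44 (adjusted p = 0.975). Perineuronal net genes, for the matrix coats around some neurons, had a median of -0.33 with 23 of 26 negative, from -0.18 in wild type and -0.17 in R6/2. The averaged median was -0.23 with 8 positive without R6/2 PLX3397 libraries 1 and 2. Without the choroid-rich pair it was -0.28 with 4 positive. Acan, which encodes the net proteoglycan aggrecan, was at 1.72 to 2.65 on vehicle and 0.96 to 2.52 on the drug, and changed by -0.46 ± 0.22 (adjusted p = 0.963). Collagen and laminin genes had a median of -0.14 over 34.

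Cortical excitatory genes had a median of -0.74 over 22 genes, with -0.07 in wild type and -1.53 in R6/2, and 0 were called. Without R6/2 PLX3397 libraries 1 and 2 the median was -0.08, with -0.03 in R6/2. The vesicular glutamate transporter Slc17a7 followed the list, with its 3 lowest values in the same 3 treated libraries. Its change of -2.27 ± 1.16 did not pass (adjusted p = 0.963), and it was -0.20 ± 0.66 without R6/2 PLX3397 libraries 1 and 2 (adjusted p = 0.896). Choroid plexus genes had a median of -0.62 over 13, and of -0.27 without the choroid-rich pair. The part of neighbouring tissue in the medians of the neuronal lists was not tested.

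**Figure D5:**
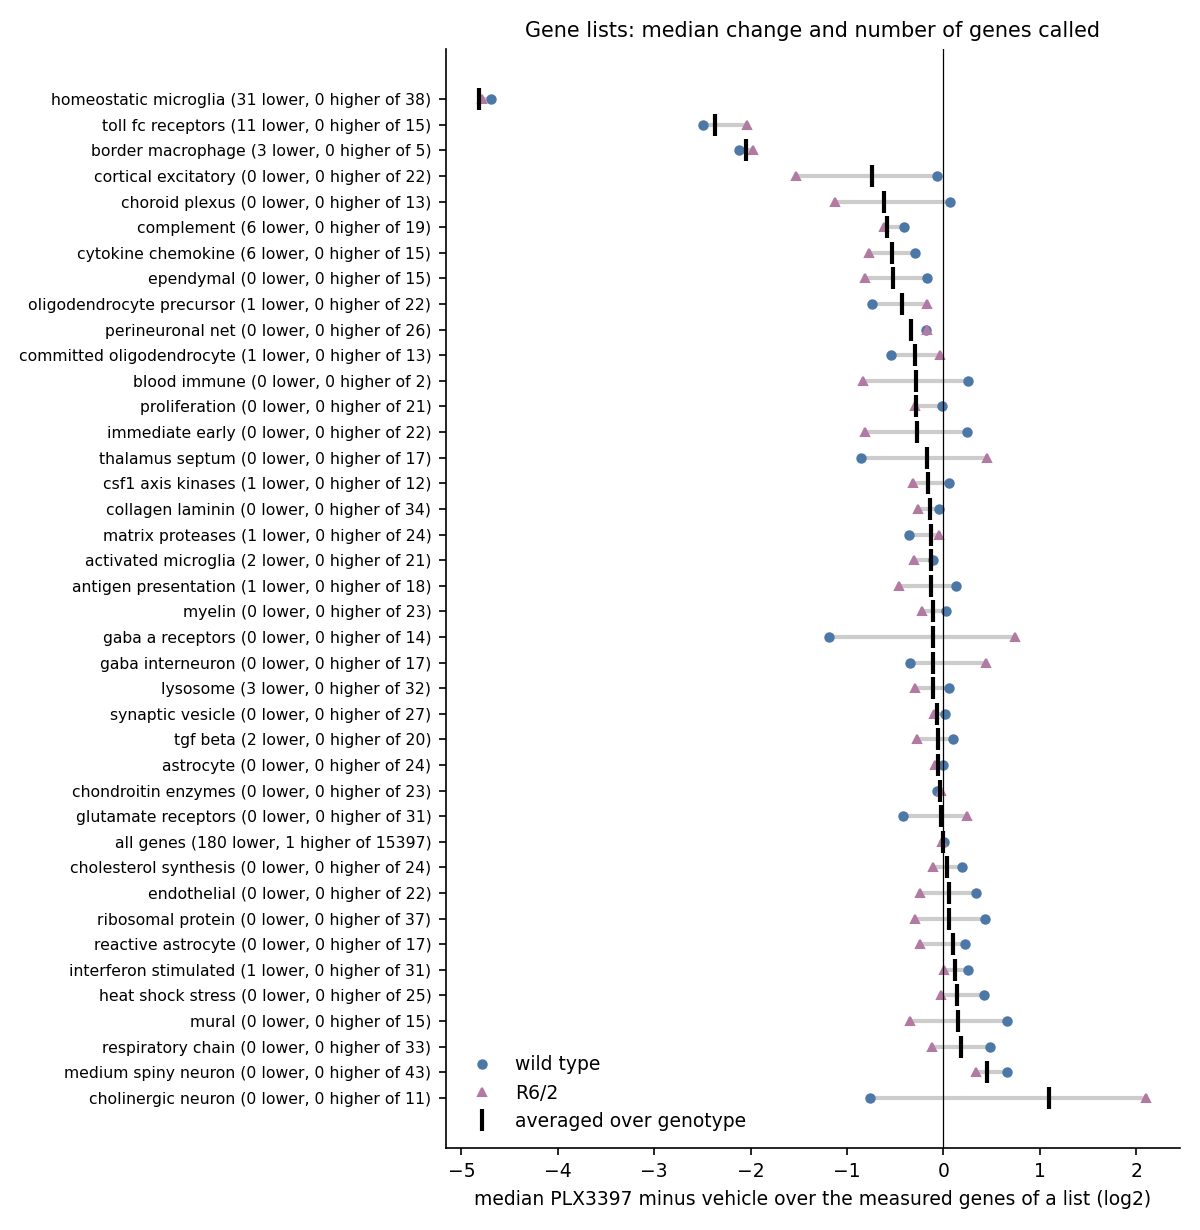
Median change on PLX3397 (log2) over the measured genes of each of 39 lists and of all genes, in wild type (blue circles), R6/2 (purple triangles) and averaged over genotype (black ticks), with the number of genes called lower and higher beside each name. The homeostatic microglia, Toll and Fc receptor and border macrophage lists are at -4.81, -2.37 and -2.05 in the average and similar in both genotypes, while the cholinergic list spans -0.76 to 2.11, with an average of 1.10 that is -0.07 without R6/2 PLX3397 libraries 1 and 2.

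The precision of the averaged comparison bounds what could have been seen. The median standard error was 0.19, the median 95% interval reached 0.41 log2 units to either side, and for 12471 genes (81.0%) the interval of the change lay within 1 log2 unit either side of 0. An averaged change also hides opposite ones, and these widen its standard error. A fit of 4 group means, which sets them apart, called 194 genes, 178 of them among the 181. It had 1278 genes at an unadjusted limma p under 0.05. In 21 lists the median had opposite signs in the 2 genotypes. Over the 15216 genes not called, the change in wild type and the change in R6/2 were inversely related (Spearman's rho -0.57 across genes, which are not independent replicates), and over the 180 called lower they were positively related (rho 0.83, within genes selected for a common fall). The wild-type change rose with the GC content of the transcript (rho 0.52) and the R6/2 change fell with it (rho -0.47), which left 0.25 for the average. With a GC and length trend removed from each library, 188 of 14305 genes were called, 172 of them among the 181, and the inverse relation over all genes went from -0.52 to -0.31.

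Whether the drug's change differed between the genotypes was tested as an interaction, R6/2 change minus wild-type change. It was called for 2617 genes (17%; 5561 at an unadjusted p under 0.05), and 2585 of these (98.8%) had changes of opposite sign. Genes selected for a large difference tend to have opposite signs where the averaged change is near 0. The share with opposite signs over all genes was not counted, so the 98.8% describes the selection. Of the 181 genes called for the averaged effect, 11 (6.08%) were among the 2617, 7 with the larger fall in wild type and 4 with the larger fall in R6/2. A difference between genotypes widens the averaged standard error, which makes an averaged call less likely for such genes. The interaction count depended on single libraries. It was 537 and 625 without wild-type vehicle libraries 1 and 2, 1158 and 1668 without R6/2 vehicle libraries 1 and 2, and 862 and 683 without R6/2 PLX3397 libraries 1 and 2. Leaving out the last 2 together leaves 1 library in that group, so lost calls there cannot be told from lost precision.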

How the data were processed

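Striatal RNA from 12 mice was sequenced. Per the submitters' processing notes, reads were aligned to mm10 with STAR and counted with featureCounts, and limma and edgeR were used; their versions and the use of strand are not given in the sources used here. The deposited table is named for RPKM, but its values are log2 CPM: all 12 libraries share a lowest value of -3.46, and after subtraction of a prior every value (100%) gave a whole read number to within 0.1. The authors' log2 values were used as deposited, for 15397 genes, 15078 of which matched RefSeq on GRCm38. Transcript GC content and length (GENCODE M21) covered 14305 genes (92.9%). Where genes overlap, as do P2ry12 and P2ry13 with Med12l, Gpr34 with Cask, Stab1 with Nt5dc2, Vsir with Cdh23 and Gpr17 with Lims2, their reads may not be told apart.

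The averaged effect was fitted with limma 3.58.1 (R 4.3.3) on genotype and drug over 12 libraries, with an intensity trend, a two-sided moderated test and Benjamini-Hochberg adjustment; the interaction came from a fit of 4 group means. The averaged test alone was tried on simulated data, with independent noise and the same change in both genotypes. The interaction test was not. The comparison, the 39 gene lists (863 entries, 796 measured), the tests and the alternatives were chosen with earlier results of these data known. Named genes were the 8 largest called rises and falls (mean over 1 log2 CPM, no overlap within either genotype, no pseudogenes or predicted genes), up to 4 called members of each list, or the 1 with the smallest p, 16 fixed genes, and 6 with an interaction; the text names a part, and other genes named were picked after their values were seen. Same-numbered replicates did not deviate together. Alternatives were a fit of group means, a replicate block, GC and length removal (mgcv 1.9.3), other scalings, pseudocounts, filters and weights, a cortical covariate, and leaving out libraries. Other steps ran in Python 3.11.15 with pandas 2.3.3 and numpy 2.4.6, intervals in scipy 1.17.1 and plots in matplotlib 3.10.9. Results for some genes are not reported here.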

Additional observations from a re-analysis of the deposited data

Results flagged for a closer look

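The change on PLX3397 differed between the genotypes, by the interaction test, in 11 genes that fell in the averaged comparison. Each value here is the log2 change in R6/2 minus that in wild type, with limma's adjusted p. The fall was larger in R6/2 for Il10ra, the interleukin 10 receptor (-1.73, 0.0219), Nckap1l, an actin regulator of white blood cells (-2.09, 0.0226), the transcription factor Irf8 (-2.28, 0.0422) and Tmem119 (-1.18, 0.0489). It was larger in wild type for Gpr17 (0.895, 0.0220), Tgfbr1 (1.12, 0.0233), Apbb1ip, an integrin adaptor (1.07, 0.0261), the kinase subunit Pik3cg (2.98, 0.0330), the prostaglandin D synthase Hpgds (2.23, 0.0346), Dock2, an activator of Rac (1.94, 0.0356) and Plek, a substrate of protein kinase C (0.747, 0.0477). Each call ended with the cortical covariate, and on leaving out the first (0.0594 to 0.117) or second (0.0526 to 0.114) wild-type library on vehicle. Without R6/2 PLX3397 libraries 1 and 2 that group held 1 library, so lost calls cannot be told from lost precision. The differences there were -1.55 for Il10ra, -1.88 for Nckap1l, -2.50 for Irf8 and -0.786 for Tmem119. They were 0.905 for Gpr17, 1.05 for Tgfbr1, 0.918 for Apbb1ip, 1.61 for Pik3cg, 1.515 for Hpgds, 2.21 for Dock2 and 0.749 for Plek.

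The share of alternatives that kept the interaction differed between these genes. Nckap1l kept it in 21 of 25, Gpr17 in 20 of 25, Il10ra in 17 of 24 and Tgfbr1 in 17 of 25. For Plek (7 of 25), Tmem119 (7 of 24) and Irf8 (8 of 24) most alternatives ended it. Removal of the GC and length trend ended 9 of the 11 calls, all but those of Gpr17 and Nckap1l, with adjusted p of 0.101 to 0.929; among them, the differences of Tgfbr1, Plek and Apbb1ip became 0.05, 0.10 and 0.22. The replicate block ended 6, those of Pik3cg (0.0516), Apbb1ip (0.0532), Dock2 (0.0675), Irf8 (0.0782), Plek (0.0811) and Tmem119 (0.0907).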

How the results depend on the processing

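Over 25 alternatives, 12 of which left out 1 library, the averaged comparison called 160 to 212 genes except with a filter on a mean of at least 2 log2 CPM, which called 29, all lower and 0 higher. That filter removed 144 of the genes called lower. It takes the mean over all 12 libraries, treated ones included, and 96 of the genes called lower had a vehicle mean of at least 2 log2 CPM. Counts with 1 library left out were 162 to 180 called, 161 to 179 lower and 1 to 4 higher, and 161 genes were called in all 12 of these fits. Genes called higher were 5 with library weights and 3 without the choroid-rich pair of libraries. In the 22 alternatives that test every gene, 147 genes were called throughout, 146 of them lower. Of 70 called genes that were named or picked, 58 kept their call in every alternative that tested them, and 0 changed sign. With the replicate block the averaged comparison called 165 genes, 164 of them shared, and the interaction 1432; same-numbered libraries do not come from one animal, and whether the numbers mark anything else is not given in the sources used here. The interaction count was 355 with the GC and length trend removed, 687 with the cortical covariate and 6588 with library weights. Without 1 library it was 537 to 3532. The causes were not tested. Depth limits genes with under about 3 reads in the treated libraries, for which the share left is uncertain.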

Other observations

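Further genes that fell kept very different shares of their RNA, and those named here were picked after their values were seen, apart from Laptm5. Laptm5, a lysosomal protein of white blood cells, fell by 5.73 ± 0.58 (limma adjusted p = 8.17e-05), from 565 to 946 reads per library to 2 to 43. Fcrls, an Fc receptor-like scavenger receptor, fell by 5.28 ± 0.44 (adjusted p = 1.66e-05) with 2.20% left. Ptgs1, the cyclooxygenase that makes prostaglandin precursors, fell by 1.23 ± 0.21 (adjusted p = 0.00865) with 45.3% left, a call that 24 of 25 alternatives kept (0.000965 to 0.0518; 0.0518 with the cortical covariate). Its treated libraries were at 1.62, 2.35 and 2.97 in wild type and at 3.01, 3.40 and 3.40 in R6/2, against 3.77 to 4.43 on vehicle.

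Tfb1m, a mitochondrial RNA methyltransferase, and Lrp8os2, a transcript antisense to the apolipoprotein receptor gene Lrp8, moved up without passing. Tfb1m changed by 0.50 ± 0.13 (adjusted p = 0.148) and Lrp8os2 by 0.80 ± 0.19 (adjusted p = 0.105), and reads of Lrp8os2 may not be told apart from those of Lrp8.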
